A study of Mus with 8 samples.

Results

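Tek, Tie1, Ptprb, Angpt1, Angpt2, Angpt4 and Svep1 make up the angiopoietin and Tie receptor system, and their transcripts were followed in cultured mouse aortic smooth muscle cells from which Tek was to be deleted. The probes were chosen by gene symbol, old or current, in the platform annotation of the array. This gave 10 probes of 7 genes, out of 46237 probes and 20334 named genes on the array. Ptprb, Angpt1 and Angpt2 had 2 probes each, called here the brighter and the dimmer probe, and the other genes had 1. The dimmer Ptprb probe is listed under 3230402H02Rik, an older name of Ptprb. 2 probes listed as Ang3, a symbol that Angpt4 once shared with a ribonuclease gene, carried identifiers of other genes and were not counted.

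The KO group was 4 cultures from mice with the floxed Tie2 gene and Cre recombinase under the SM22α promoter, which is active in smooth muscle and excises floxed sequence there. The WT group was 4 cultures from mice with the floxed gene and without Cre, so both groups carried the floxed allele and the groups differed in Cre as well as in the deletion. All cultures came from aortas of male C57 black 6 mice aged 8 weeks and were used at passage 1, in medium with 15% fetal calf serum. The labels do not say whether animals were pooled or whether each culture came from its own animal, so each p-value reflects the scatter among these 8 cultures, which may be technical. The cultures were measured on 1 Illumina bead array each, and slide 1 held the 4 WT arrays with KO replicates 1 and 2 while slide 2 held KO replicates 3 and 4.

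Tek encodes Tie2, a receptor tyrosine kinase best known from endothelial cells. Angpt1, a ligand that mural cells secrete, activates it, and Angpt2 activates or blocks it depending on context. Angpt4 is a further ligand. Tie1 is a related receptor that pairs with Tie2, Ptprb is the receptor phosphatase VE-PTP that dephosphorylates Tie2, and Svep1, or polydom, is a matrix protein that binds Tie1 in vessels and lymphatics.

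Between 44.9% and 49.5% of probes were detected on an array, that is, had a deposited detection p-value under 0.05. WT replicate 2 had a median correlation of 0.94 with the other arrays, against 0.954 to 0.971 for the others, and values without it are given where leaving it out moves a difference by over 1.5 times. Smooth muscle markers were present in both groups, with 8 of 10 detected on all 8 arrays, among them Acta2, Tagln and Myh11. Of 17 endothelial markers, 8 were detected on all 8 arrays, namely Cdh5, Emcn, Eng, Esam, Egfl7, Flt1, Plvap and Sox18. Erg was detected on none. Vwf was detected on 0 KO arrays and 1 WT array, and Kdr on 1 KO array and 2 WT arrays. 12 of 15 macrophage markers were detected on all 8 arrays. In bulk cultures, fewer cells of a type and less RNA per cell cannot be told apart.

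Tek was lower in every KO culture than in every WT culture. On the log2 scale after background correction and normalization it stood at 4.78, 5.56, 5.36 and 5.26 in KO replicates 1 to 4. In WT replicates 1 to 4 it stood at 6.44, 7.42, 6.66 and 6.35. The lowest WT culture, replicate 4, was above the highest KO culture, replicate 2. The means were 5.24 ± 0.33 in KO and 6.72 ± 0.49 in WT (SD, n = 4 each). The log2 difference, KO minus WT, was -1.48 with a standard error of 0.27 and a 95% interval of -2.10 to -0.86. The exact two-sided permutation test over cultures gave p = 0.0286, the smallest that 4 against 4 allows.

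Across the 21275 probes tested, 0 passed a limma adjusted p of 0.05, which is 0% of them. Tek had an unadjusted limma p of 0.00042 and an adjusted p of 0.66. 10 probes had a smaller p and 28 had a larger decrease. 1435 probes (6.75%) had an unadjusted limma p under 0.05, and 646 (3.04%) had it with KO lower. The groups did not overlap for 804 probes (3.78%), with the KO cultures lower for 337 (1.58%) and higher for 467 (2.2%). Within slide 1 the Tek difference was -1.55, and without WT replicate 2 it was -1.25.

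**Figure D1:**
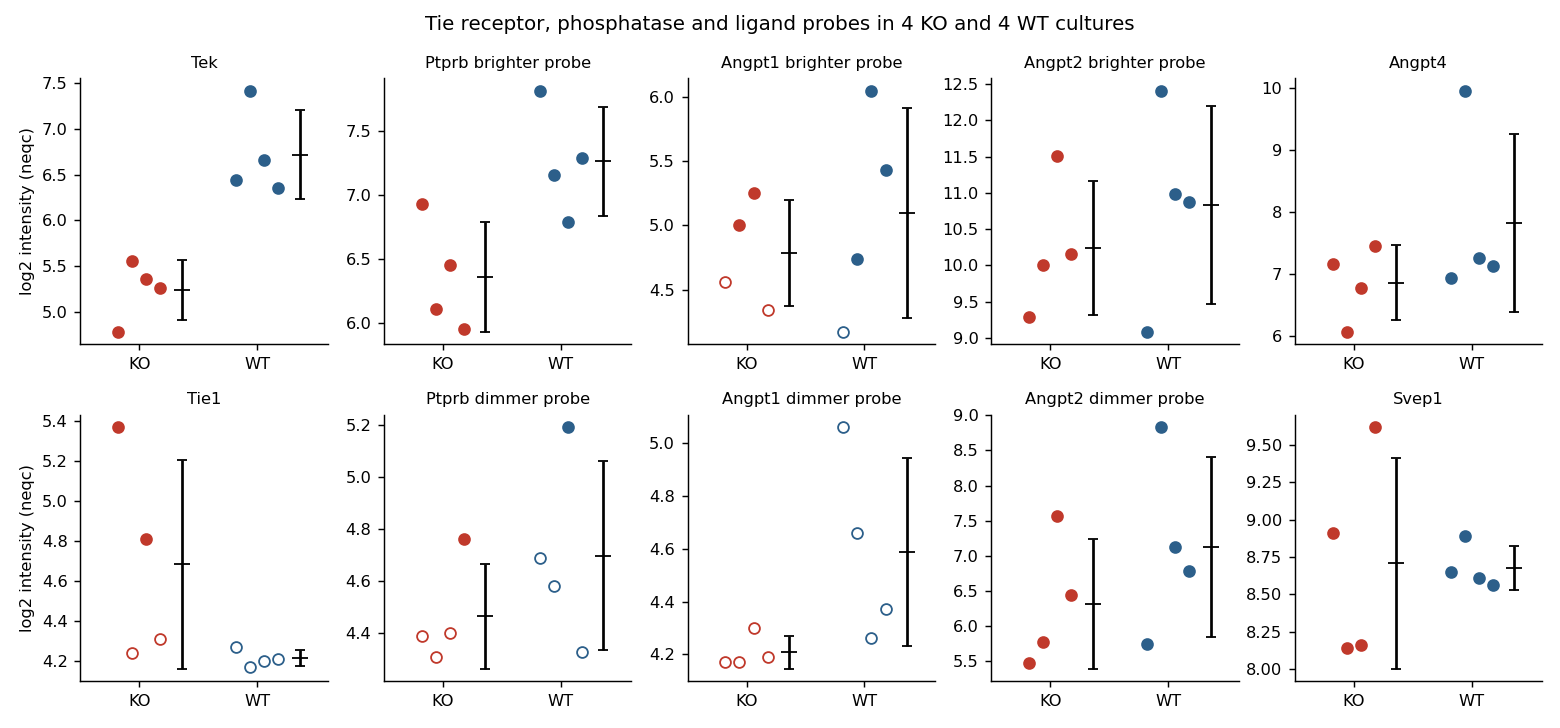
Log2 intensity after neqc correction (vertical axes, a separate scale in each panel) of the 10 probes in KO (left, red) and WT (right, blue) cultures, with points running from replicate 1 to 4. Filled points are detected, open points are not, and bars give the mean and SD of 4 cultures. Tek separates the groups, with KO between 4.78 and 5.56 and WT between 6.35 and 7.42, and the other panels with filled points on all arrays overlap.

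The scanner values show how near to background the remaining Tek signal lay. Each probe is read from several beads, and the Tek probe had a bead mean of 122.4, 155.9, 124.5 and 119.7 in KO replicates 1 to 4, with standard errors between beads of 6.19, 13.4, 7.31 and 5.02. In WT replicates 1 to 4 the bead mean was 139.6, 260.8, 215.2 and 176.2, with standard errors of 9.16, 22.6, 16.3 and 12.2. These intensities are not normalized between arrays, and each array has its own background. The deposited detection p-values correspond to a t statistic of the beads against a single level per array. That level was 109.0, 116.5, 102.0 and 100.9 in KO replicates 1 to 4 and 87.6, 103.0, 117.0 and 109.3 in WT replicates 1 to 4.

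Above that level, Tek had 13.4, 39.5, 22.6 and 18.8 units in the KO cultures. In the WT cultures it had 52.0, 157.7, 98.2 and 66.9 units. Every KO value was below every WT value on this linear scale as well, and all 8 arrays detected Tek. The means were 23.6 ± 11.3 in KO and 93.7 ± 46.8 in WT (SD, n = 4 each), so that the KO mean was 25.1% of the WT mean. Single KO cultures held between 14.3% and 42.1% of the WT mean, and the lowest WT culture, replicate 1, held 55.5%.

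A stricter yardstick was the spread of 937 probes that have no gene listed and whose identifiers fall in a single block, taken here as control-like. No label or header calls them negative controls. Of these probes, 13.3% to 15.0% were themselves detected on an array. A detection call, for Tek or another gene, thus does not by itself set a probe apart from them. Tek exceeded the 95th percentile of these probes on 2 of 4 KO arrays, replicates 2 and 3, by 0.243 and 2.15 units, which is less than the bead standard error. It exceeded that percentile on 4 of 4 WT arrays, by 34.6 to 128.0 units. Between 85.3% and 96.4% of control-like probes were dimmer than Tek on the KO arrays, and between 99.6% and 99.9% were dimmer on the WT arrays.

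**Figure D2:**
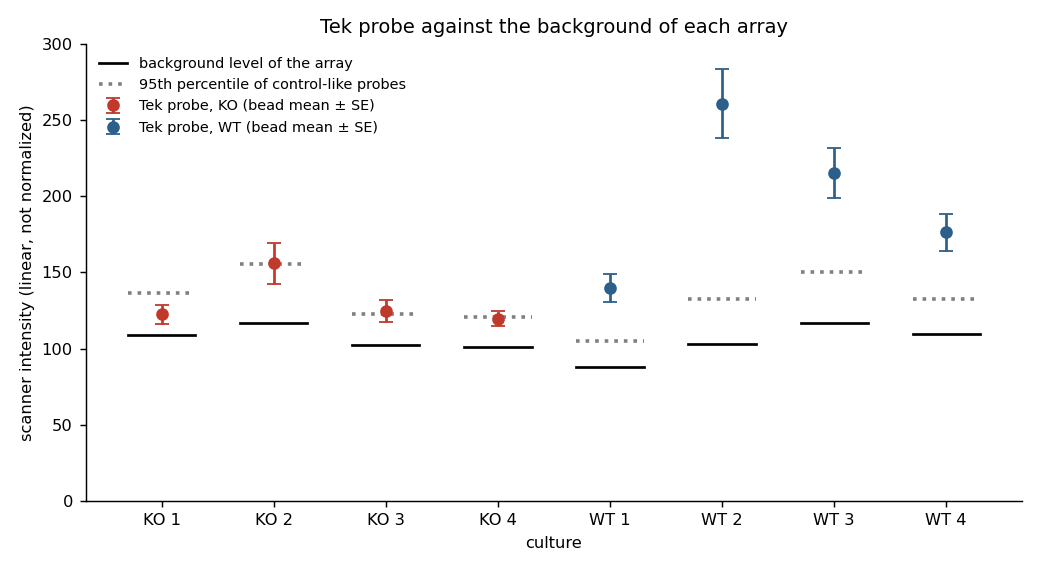
Scanner intensity of the Tek probe (vertical axis, linear) in each KO and WT culture, with the bead mean and its standard error. Solid lines mark the background level of the array and dotted lines the 95th percentile of 937 control-like probes. KO replicates 1 and 4 lie below the dotted line, and all 4 WT cultures lie above it.

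The share of Tek signal left in KO depended on the background taken off and on the offset, a constant added afterwards to every value. It was 35.8% of WT after neqc correction with an offset of 16, with a 95% interval of 23.3% to 55.1%. With the same background taken off by neqc and a larger offset of 50 it was 51.4%. With normexp at an offset of 50 it was 58.6%, and with no background correction it was 65.1%. In the authors' value table, which is normalized between arrays on a linear scale, Tek averaged 128.0 ± 9.82 in KO and 197.5 ± 40.2 in WT (SD, n = 4 each), and the share was 65.6% with an interval of 52.5% to 82.0%. Where neqc took the control-like probes for its negative controls, the share was 37.9% when their mean and SD were estimated robustly and 94.0% when they were not. The SD of these probes per array was between 8.3 and 16.1 by the robust estimate and between 336.8 and 491.6 by the plain one. Under each of these 7 treatments the estimate was below 100% of WT, and so was the upper end of its interval. No label or file places the probe relative to the floxed sequence, and whether it reads a transcript without that sequence was not tested.

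**Figure D3:**
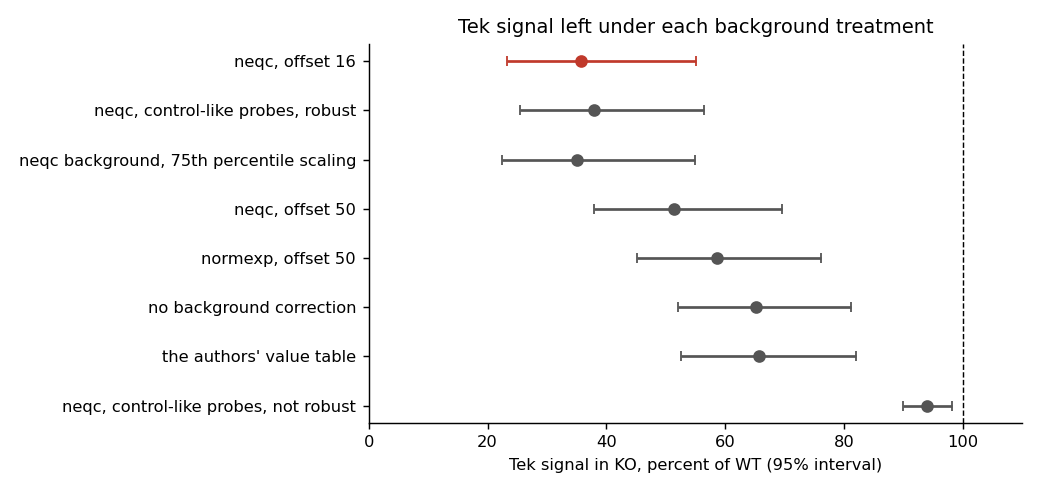
Tek signal in KO as a percent of WT (horizontal axis, with the 95% interval of the limma fit) under 8 treatments of background and scale. The estimate after neqc with an offset of 16, in red, is 35.8%, and the others run from 35.1% to 94.0%.

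Markers of other cell types also differed between cultures. Macrophages, some of which carry Tie2, were represented by 14 tested markers, of which 14 were lower in KO by sign and 0 passed. Their median log2 difference was -1.01, against 0.02 over all probes tested, and it was -0.36 without WT replicate 2 and 0.15 within slide 1. The summed value of the macrophage list in the authors' table was 27029, 20358, 4029 and 8140.0 in KO replicates 1 to 4 and 36728, 50591, 4888 and 11268 in WT replicates 1 to 4. WT replicate 2 had the highest macrophage sum and the highest Tek level, while KO replicate 1 had the third highest sum and the lowest Tek level. Of the fibroblast markers, 6 of 6 tested were lower in KO by sign, with a median of -0.55, or -0.16 without WT replicate 2. Their sum was between 12386 and 22177 in KO and between 13039 and 37082 in WT, with WT replicate 2 the highest. The summed value of the endothelial list was between 5051 and 6548 in KO and between 3938 and 5464 in WT. 10 of its 13 tested genes were higher in KO by sign, with a median of 0.23, or 0.08 within slide 1. Robo4, among the higher genes, was tested through a probe detected on 3 KO arrays and 1 WT array. Cdh5 was detected on all 8 arrays. The part of these cell types in the Tek difference was not tested.

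Tie1, the partner receptor of Tie2, was not detected on any WT array. Its log2 intensity was 5.37, 4.24, 4.81 and 4.31 in KO replicates 1 to 4 and 4.27, 4.17, 4.20 and 4.21 in WT replicates 1 to 4. It was detected on 2 of 4 KO arrays, replicates 1 and 3, and exceeded the 95th percentile of control-like probes on 1 of them, replicate 1. The 4 WT values sat at the bottom of the scale and the KO values reached from there upward, so the groups overlapped. The means were 4.68 ± 0.52 in KO and 4.21 ± 0.04 in WT (SD, n = 4 each). With WT placed at 4.54, set by the lowest signal detected on each WT array, the KO mean was 1.10-fold higher. That is no lower limit, since the KO mean includes replicates 2 and 4, where Tie1 was not detected. The 1.10-fold value rested on KO replicate 1: the other 3 KO cultures averaged 4.45, below 4.54, and without replicate 1 no fold can be given. The probe failed the filter on dim probes. Fitted over all 46237 probes, its log2 difference was 0.47 with a standard error of 0.24, an interval of -0.08 to 1.03 and a limma adjusted p of 0.83.

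Ptprb, the phosphatase, was the only other member besides Tek with a tested probe at an unadjusted limma p under 0.05. The brighter probe stood at 6.93, 6.11, 6.45 and 5.95 in KO replicates 1 to 4 and at 7.82, 7.16, 6.79 and 7.29 in WT replicates 1 to 4. KO replicate 1 was above WT replicate 3 and the other KO cultures were below all WT cultures. The means were 6.36 ± 0.43 in KO and 7.27 ± 0.43 in WT (SD, n = 4 each). The log2 difference was -0.90 with a standard error of 0.28, an interval of -1.54 to -0.27, an unadjusted limma p of 0.01 and an adjusted p of 0.73. It was -0.47 in the authors' value table, and between -1.09 and -0.72 when each culture was left out in turn. With replicate number as a block it was -0.90 with an unadjusted limma p of 0.005 and an adjusted p of 0.51. With slide as a block it was -0.74 with an unadjusted limma p of 0.065, and within slide 1 it was -0.74 with one of 0.075, so that it no longer passed 0.05 in either.

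The dimmer Ptprb probe gave no such separation. It was detected on 1 KO array and 1 WT array, with log2 values of 4.31 to 4.76 in KO and 4.33 to 5.19 in WT. The 2 Ptprb probes had a Pearson correlation of 0.04 over the 8 cultures. The difference in Ptprb rests on the brighter probe alone.

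Angpt1, the activating ligand, was dim in these cultures. The brighter probe had log2 values of 4.56, 5.00, 5.25 and 4.34 in KO replicates 1 to 4, and was detected in replicates 2 and 3. In WT replicates 1 to 4 it had 4.17, 4.74, 6.05 and 5.43, and was detected in all but replicate 1. WT replicates 3 and 4 were the highest of the 8 cultures and WT replicate 1 the lowest, so the WT range enclosed the KO range. The log2 difference was -0.31 with a standard error of 0.40 and an interval of -1.20 to 0.58 (limma adjusted p = 0.87). The dimmer Angpt1 probe lay between 4.17 and 4.30 in KO and between 4.26 and 5.06 in WT and was detected on 0 arrays, which leaves no fold to give. The 2 probes had a Pearson correlation of -0.42.

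Angpt2, the context-dependent ligand, was bright and varied widely between cultures, with SDs of 0.93 in KO and 1.36 in WT on the log2 scale. Its brighter probe stood at 9.29, 10.00, 11.51 and 10.16 in KO replicates 1 to 4 and at 9.08, 12.41, 10.98 and 10.88 in WT replicates 1 to 4. The lowest and the highest culture were both WT, replicates 1 and 2. On the linear scale of the authors' value table the KO cultures lay between 701.9 and 3151 and the WT cultures between 626.3 and 5508. The log2 difference was -0.59 with a standard error of 0.68 and an interval of -2.14 to 0.95 (limma adjusted p = 0.85). Without WT replicate 2 it was -0.07, and within slide 1 it was -1.19.

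The dimmer Angpt2 probe, also detected on all 8 arrays, ordered the cultures nearly alike. It had log2 values of 5.48, 5.78, 7.56 and 6.44 in KO replicates 1 to 4 and of 5.75, 8.83, 7.13 and 6.79 in WT replicates 1 to 4. Over the 8 cultures the 2 probes had a Pearson correlation of 0.97 (exact permutation p = 0.00025, adjusted p = 0.0042 over 17 relations computed) and a Spearman correlation of 0.98 (exact permutation p = 0.0004, adjusted p = 0.0067). Pearson's correlation was 0.97 without the 2 cultures farthest from the median, 0.95 without WT replicate 2 and 0.97 over the 6 cultures of slide 1. The spread of Angpt2 between cultures was thus seen by both probes. The dimmer probe's log2 difference was -0.81 with a standard error of 0.65 (limma adjusted p = 0.79), with -0.24 without WT replicate 2 and -1.50 within slide 1.

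Angpt4, the remaining ligand, was set apart by a single culture. Its log2 intensity was 7.17, 6.07, 6.78 and 7.45 in KO replicates 1 to 4 and 6.94, 9.96, 7.26 and 7.14 in WT replicates 1 to 4. WT replicate 2 was far above the other cultures, and the rest overlapped. The log2 difference was -0.96 with a standard error of 0.64 and an interval of -2.41 to 0.50 (limma adjusted p = 0.76), and it was -0.25 without WT replicate 2. With the brighter Angpt2 probe, Angpt4 had a Pearson correlation of 0.64 (exact permutation p = 0.12, adjusted p = 0.38) and a Spearman correlation of 0.38 (exact permutation p = 0.36, adjusted p = 0.93). Pearson's correlation was 0.05 without WT replicate 2, so that this relation rested on that culture.

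**Figure D4:**
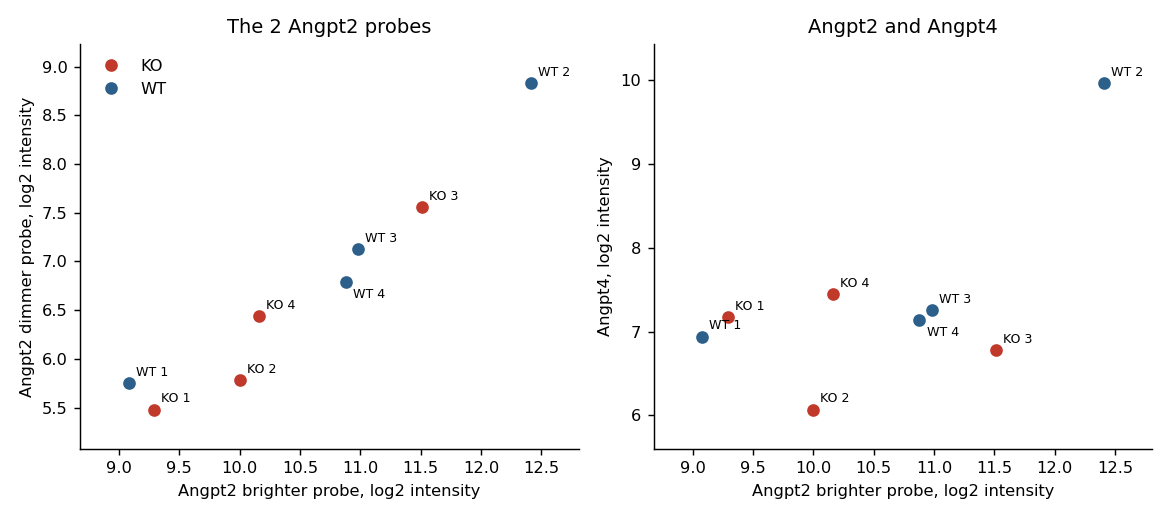
Log2 intensity of the dimmer Angpt2 probe (left) and of Angpt4 (right) against the brighter Angpt2 probe, 1 point per culture, KO in red and WT in blue. The Angpt2 probes rise together over all 8 cultures (Pearson correlation 0.97), while Angpt4 has its top value, 9.96, in WT replicate 2 and lies from 6.07 to 7.45 elsewhere.

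Svep1, the matrix protein, was bright in all cultures and did not separate the groups. Its log2 intensity was 8.91, 8.14, 8.16 and 9.62 in KO replicates 1 to 4 and 8.65, 8.89, 8.61 and 8.56 in WT replicates 1 to 4. The 4 WT cultures lay within the range of the KO cultures, which spread more (SD 0.71 in KO and 0.15 in WT). The log2 difference was 0.03 with a standard error of 0.32 and an interval of -0.69 to 0.76 (limma adjusted p = 0.98). It was -0.27 without KO replicate 4 and 0.11 without WT replicate 2.

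The ligands and receptors can be placed by how bright each probe was on its own array, which is not an order of transcript number, since probes differ in how strongly they bind. The brighter Angpt2 probe was brighter than 88.4% to 96.7% of all probes in KO and than 87.3% to 98.3% in WT. Svep1 followed, above 82.3% to 90.1% of probes in KO and 84.6% to 86.4% in WT. Angpt4 stood above 69.5% to 78.3% in KO and 75.2% to 91.7% in WT, and the brighter Ptprb probe above 68.5% to 75.2% in KO and 74.3% to 80.5% in WT. Tek stood above 52.7% to 65.0% of probes in KO and 71.4% to 78.1% in WT. The brighter Angpt1 probe ranged from 31.3% to 61.3% in KO and from 5.1% to 69.4% in WT, and Tie1 from 17.4% to 62.9% in KO and from 3.9% to 22.8% in WT. The ranges of Angpt2 and Svep1 overlapped in KO and lay apart in WT. Those of Tek, Ptprb and Angpt4 overlapped in WT, while in KO that of Tek lay below those of Ptprb and Angpt4.

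A difference between probes of the same array was read only where both were detected, since a probe at background gives no level. Tie1 was detected on 2 of 8 arrays, both KO, so Tek cannot be set against it in WT. The brighter Angpt1 probe was not detected in KO replicates 1 and 4 or in WT replicate 1. In the other cultures Angpt1 minus Tek was -0.56 and -0.10 in KO replicates 2 and 3 and -2.68, -0.61 and -0.92 in WT replicates 2, 3 and 4, on the log2 scale. These 2 KO values were the highest of the 5, and Tek, which was lower in KO, enters each of them. The brighter Angpt1 probe exceeded the 95th percentile of control-like probes on 0 KO arrays and on 2 WT arrays, replicates 3 and 4. Both KO differences thus set 2 dim probes against each other, and a higher ligand-to-receptor value in KO cannot be read from them. Angpt2 minus Angpt1 was 4.99 and 6.26 in KO replicates 2 and 3 and 7.67, 4.92 and 5.45 in WT replicates 2, 3 and 4, and the groups overlapped. These differences are descriptions and were not tested.

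Of the 7 tested probes of the system, 6 were lower in KO by sign, 2 had an unadjusted limma p under 0.05, both with KO lower, and 0 had an adjusted p under 0.05, against 6.75%, 3.04% with KO lower, and 0% over all probes. The groups were apart with KO lower for 1 of the 7, against 1.58% of all probes, and with KO higher for 0, against 2.2%. The 1 probe apart was that of Tek, the gene to be deleted, and no other tested probe had its groups apart. Tek was also 1 of the 2 with an unadjusted limma p under 0.05, and the other was the brighter Ptprb probe. The median log2 difference of the 7, Tek included, was -0.81, against 0.02 over all probes. 3 of the 7 are probes of Angpt2 and Angpt4, whose values lean on WT replicate 2. The 3 probes that failed the filter were those of Tie1 and the dimmer ones of Ptprb and Angpt1.

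**Figure D5:**
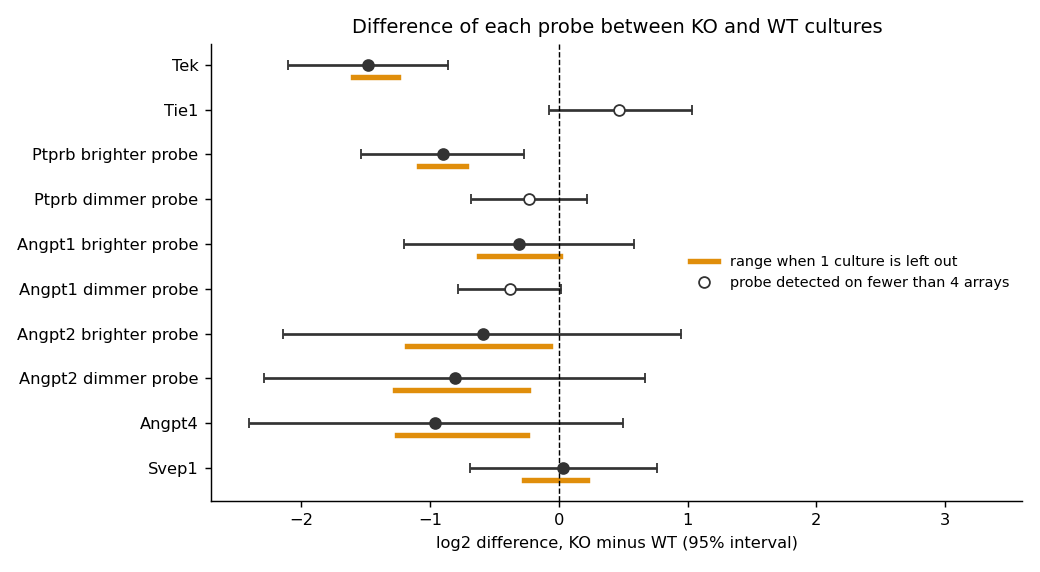
Log2 difference, KO minus WT, of each of the 10 probes (horizontal axis) with its 95% interval from limma, and in orange the range when 1 culture is left out in turn. Open points are probes that failed the filter. The intervals of Tek and of the brighter Ptprb probe lie below 0, and the other intervals include 0.

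The wider pathway was read through gene lists, each gene by its brightest tested probe. Of the adaptors and partners that carry the Tie2 signal inward, 15 of 18 were tested, 7 were higher and 8 lower in KO by sign, and 0 had an unadjusted limma p under 0.05. Their median log2 difference was -0.02. Nck1, an adaptor linked to Tie2 through Dok-R, stood at 10.12 ± 0.04 in KO and 10.40 ± 0.10 in WT (SD, n = 4 each), without overlap, with a log2 difference of -0.27 and a limma adjusted p of 0.73. Crk, also an adaptor and named here after its values were seen, was the other gene of the list without overlap. It went the other way, with 12.34 ± 0.09 in KO and 12.13 ± 0.10 in WT (SD, n = 4 each) and a limma adjusted p of 0.77. Over all probes tested, the groups did not overlap for 3.78%, with KO lower for 1.58% and higher for 2.2%. Dok1, a docking protein, had a log2 difference of 0.33, or 0.18 without WT replicate 2, and Vav3 of -0.59, or -0.19 without that culture.

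Integrins that bind angiopoietins had the largest median of these lists. 6 of 7 were tested, 4 were higher and 2 lower in KO by sign, and the median log2 difference was 0.60, or 0.39 without WT replicate 2. Itgb3, among the higher genes, had 0.65 through a probe detected on 3 KO arrays and 1 WT array. Itgav, the αv subunit, stood at 8.86 ± 0.40 in KO and 8.32 ± 0.26 in WT (SD, n = 4 each), without overlap. Its log2 difference was 0.54 with a standard error of 0.24, an unadjusted limma p of 0.046 and an adjusted p of 0.73. No other of the 6 tested genes had groups apart or an unadjusted limma p under 0.05. Over all probes tested, 3.78% had groups that did not overlap and 6.75% had an unadjusted limma p under 0.05. Itga5 and Itga1, the α5 and α1 subunits, had log2 differences of 0.65 and 0.78. Leaving out WT replicate 2 gave 0.38 for Itga5 and 0.43 for Itga1. None of the 6 passed the adjusted threshold. Of the smooth muscle markers, 9 of 9 tested genes were also higher in KO by sign, with a median of 0.45, or 0.22 without WT replicate 2. Among them Cnn1 had 0.11, through a probe detected on 3 KO arrays and 1 WT array, and Acta2 had 0.01. Without WT replicate 2, Cnn1 had -0.06 and Acta2 -0.00. The summed value of the smooth muscle list in the authors' table was between 42891 and 51009.7 in KO and between 32285 and 50389 in WT. The part of these markers in the integrin values was not tested.

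The other lists gave no shift of that size. Of the angiopoietin-like genes, secreted relatives of the angiopoietins, 4 of 6 were tested, with 2 higher and 2 lower. Angptl2 had a log2 difference of 0.50 (limma adjusted p = 0.73) through a probe detected on 3 KO arrays and 1 WT array. Angptl6 had -0.76 and Angptl1 0.25. Without WT replicate 2 Angptl6 had -0.48 and Angptl1 -0.19. Of the surface partners and proteases of Tie receptors, 6 of 7 were tested, 3 higher and 3 lower, with a median of -0.05. Adam17, a sheddase, had a log2 difference of -0.46, or -0.24 without WT replicate 2, and Adam10, its relative, of -0.40, which was 0.18 within slide 1. Cd44, a hyaluronan receptor, had 0.51, or 0.17 without WT replicate 2.

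Of the transcription factors known at the Tek promoter, 8 of 9 were tested, 3 higher and 5 lower, with a median of -0.20, or -0.02 when WT replicate 2 is left out. Ets1 had a log2 difference of 0.51, or 0.30 without WT replicate 2. Epas1, which encodes HIF-2α, had 0.75 through a probe detected on 3 KO arrays and 1 WT array, and 0.28 within slide 1. Elf1 had -0.22. 0 of these genes passed the adjusted threshold in limma, and 0 had an unadjusted p under 0.05. Among the 3 genes on each side of Tek in gene order, 3 had a probe and 1, Mysm1, a histone deubiquitinase, was tested, with a log2 difference of -0.12, or -0.00 without WT replicate 2, and a limma adjusted p of 0.92.

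Over the 8 cultures, the genes most like Tek among 11871 were Coprs, Nck1, Rpl12, Grcc10 and Fuom, with Pearson correlations of 0.964, 0.962, 0.954, 0.945 and 0.942. All 5 were lower in KO by sign, with log2 differences between -0.68 and -0.22. That sign follows largely from the choice, since Tek itself was lower in KO. Once the group means were taken off, the genes whose deviations were most like those of Tek were Smim14, Rab24, Lzts2, Ccdc163 and Ccsap, with correlations of 0.975 to 0.994 over the same 8 arrays. No gene was named by both measures. With so many genes and 8 points that share their arrays, these correlations are a description.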

How the data were processed

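RNA of 8 cultures, 4 KO and 4 WT, was measured on 1 Illumina bead array each. Per the file headers, the scanner table holds for each probe the mean intensity of its beads, not normalized, with the SD between beads (a signal in the same units), how many beads were read (counts), and the p-value of detection. The authors also deposited a value table of linear intensity, and how it was normalized is not stated in any label or header. The identifiers that the scanner table prints do not go with its values. Its 46237 rows were therefore matched to the probes of the value table by their ranks over the 8 arrays, and each found a single partner. The lowest Spearman correlation between matched columns was 0.9999, against -0.0083 to -0.0047 by the printed identifiers. The platform annotation and a RefSeq gene table of assembly GRCm38.p6, used for names and gene order only, named 35784 probes with 1 gene and 10453 with none.

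Scanner intensities were background-corrected and quantile normalized with neqc (limma 3.58.1, R 4.3.3, offset 16), giving log2 values. In this main setting neqc was given no negative controls and estimated the background from the deposited detection p-values. Those correspond to a t statistic of the beads, not to ranks among negative controls, and the main log2 values rest on that estimate. The 21275 probes detected on at least 4 of 8 arrays were tested with lmFit and eBayes, with Benjamini-Hochberg adjustment over all of them. Detection means a deposited p-value under 0.05. Each test was checked on simulated data. The Tek difference and the 17 relations between member probes had exact permutation tests (SciPy 1.17.1), and the differences of the other probes had none. The number of arrays limits the precision, and a median of 38.0 to 40.0 beads stood behind a value. Alternatives covered background, scaling, filter, slide, replicate number and leaving out each culture. The members and lists were chosen with earlier results of these data known. All member probes are named. Each pathway list is given by counts and at most 3 genes of highest absolute moderated t, and the 5 genes most correlated with Tek are named by either measure. Crk and Itgb3 are named besides.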

Additional observations from a re-analysis of the deposited data

Results flagged for a closer look

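In each probe and group of 4 cultures, the gap between an extreme culture and its neighbour was set against the range of the group, by Dixon's test at its 95% critical value. Of 20 such groups, 2 held an outlying culture, and chance flags about 1 in 20. For Angpt4, WT replicate 2 stood at a log2 intensity of 9.96 while the other WT cultures lay between 6.94 and 7.26, a gap of 0.89 of the range. For the dimmer Angpt1 probe, KO replicate 3 stood at 4.30 and the other KO cultures between 4.17 and 4.19, a gap of 0.84 of the range, with all 4 values below detection.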

How the results depend on the processing

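Of the results compared across alternatives, 165 comparisons kept direction and side of the threshold. The share of Tek left in KO came to 65.6% from the authors' values, to 65.1% with no background taken off, and, at an offset of 50, to 58.6% by normexp and 51.4% by neqc. In settings chosen after seeing the data it was 94.0% with control-like probes as negative controls (plain mean and SD) and 25.1% on scanner intensity minus the background level. Leaving out each culture gave shares of 32.9% to 42.2% and log2 differences of -1.60 to -1.25. The count of probes past the limma adjusted threshold was 0 under every setting but the plain control-like one, where it was 1, and 0 to 0 when each culture was left out. Counts at an unadjusted limma p under 0.05 ran from 1010 in slide 1 alone to 2770 without the filter, against 1435. The sign turned for Svep1 with slide as a block and in slide 1 alone (-0.15 each), and without KO replicate 1 (-0.03), KO replicate 4 (-0.27) or WT replicate 4 (-0.01), in a leave-one-out range of -0.27 to 0.22. It turned for the brighter Angpt1 probe without WT replicate 3 (0.01, range -0.62 to 0.01).

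Replicate numbers are shared by the groups, and same-numbered cultures deviated together with correlations of 0.293, 0.185, 0.231 and 0.068. Every culture correlated best with its own number. The numbers were nonetheless not taken as a pairing, and the main fit and the Tek permutation test treated the cultures as unpaired. With the replicate number as a block, Tek had a log2 difference of -1.48 (limma adjusted p = 0.51), 0 probes passed and 1977 had an unadjusted p under 0.05. Between same-numbered cultures the summed macrophage markers were lower in KO for 4 of 4 numbers, and the smooth muscle and endothelial sums were higher in KO for 4 of 4. KO replicates 3 and 4 were alone on slide 2, so slide and group overlap in part.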
